A study of Mus musculus with 6 samples.

Results

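Transcribed-ultraconserved regions (T-UCRs) are RNAs read from genome segments that are identical in human, mouse and rat. The members described here are the array probes of 18 ultraconserved elements that lie in genes of splicing regulators. They were chosen by element name and not by a cut on their signals, but earlier results of these data were known. The array carried 1 probe for each strand of an element, which gave 36 member probes among 962 T-UCR probes of 481 elements. From background knowledge, 16 of the 18 elements lie in 15 named host genes, and uc.375 and uc.393 are given here with no host gene.

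Both groups were C57Bl/6 mice aged 12 months. The HCC group carried the Apcfl/fl genotype, a hypomorphic allele of Apc. Apc is the brake on Wnt/β-catenin signalling, and these mice were kept until they developed hepatocellular carcinoma (HCC). The control group was Apc+/+ and had no tumour. Each group held 3 arrays of liver RNA, and the HCC samples were labelled as liver tissue with HCC, so they may hold non-tumour liver as well. The sex of the mice was not given in the labels. The RNA was depleted of rRNA, copied by random priming into cRNA carrying the dye Cy3, and measured on the Arraystar mouse lncRNA array V2.0, a single-colour array. In tissue RNA of this kind, fewer cells of a type and less RNA per cell cannot be told apart. The series counts 3 mice per genotype, and beyond that the labels do not tie an array to an animal, so p-values measure the spread between these samples.

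SR proteins and heterogeneous nuclear ribonucleoproteins (hnRNPs) bind pre-mRNA and decide which exons are kept. SR proteins mostly favour inclusion of an exon, while many hnRNPs, such as the PTB family, oppose it. Many of their genes hold an ultraconserved element in or beside a "poison" exon, whose inclusion adds an early stop codon and sends the mRNA to nonsense-mediated decay, so that the protein limits its own mRNA. A probe in such an element can therefore read a spliced isoform, an unspliced intron or a separate transcript, and these were not told apart by the array. The sign in a name is the strand as the array gives it. Only for uc.455 did the study's text tie a sign to a gene, placing uc.455+ antisense to Rbm39.

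All values below are log2 signals after quantile normalisation, and a change is the mean of Apcfl/fl HCC minus the mean of Apc+/+ liver on that scale. The arrays found 70.7% to 76.5% of all probes above background in HCC and 50.8% to 82.8% in Apc+/+ liver, where Apc+/+ replicate 2 was the lowest. Apcfl/fl HCC replicates 1 and 2 differed by less than the noise of the scanner software's error model (mean chi-square 0.774 per probe). They were counted as 1 sample through their mean, which left 2 HCC samples and 3 liver samples in the test. Apc+/+ replicates 2 and 3 were also close (mean chi-square 1.99, against 6.37 and 7.56 for the other liver pairs) but stayed 2 samples. Their median difference over the tested members was 0.117, as in the averaged HCC pair. With replicates 2 and 3 averaged as well, 0 probes of the array had a limma adjusted p below 0.05 with a fold of at least 2. The position codes in the scanner files placed all HCC arrays and Apc+/+ replicate 1 in the first slide row, and Apc+/+ replicates 2 and 3 in the second.

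Splicing locus T-UCRs were detected more widely than the other T-UCRs, but not much more widely than the probes of the whole array. Of the 36 member probes, 28 (77.8%) cleared the scanner software's background limit on 3 or more arrays and were tested, against 474 of 925 other T-UCR probes (51.2%). On all 6 arrays, 20 members (55.6%) were above background, against 227 of the others (24.5%). Over the whole array, 45640 of 59631 probes were tested, and 29700 of the 59631 were above background on all 6 arrays. No array detected 5 members (13.9%), while 287 of the others (31.0%) were seen on none. Detection was split evenly by strand, with 14 plus and 14 minus probes tested. Both strands were tested for 11 elements, the plus strand alone for uc.33, uc.189 and uc.393, and the minus strand alone for uc.50, uc.144 and uc.193. Neither strand of uc.375 was tested. These shares are descriptions, with no test.

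The 8 untested probes lay between 1.53 and 4.04, and the 3 of them that were ever above background (uc.33-, uc.375+ and uc.393-) were so on Apc+/+ replicate 3 alone. The brightest of the array's negative-control probes averaged 6.13 on the same scale. Of the 28 tested members, 19 had a mean over the arrays above that control and 9 lay below it. Apc+/+ replicate 2 was below background for 7 tested members.

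**Figure D1:**
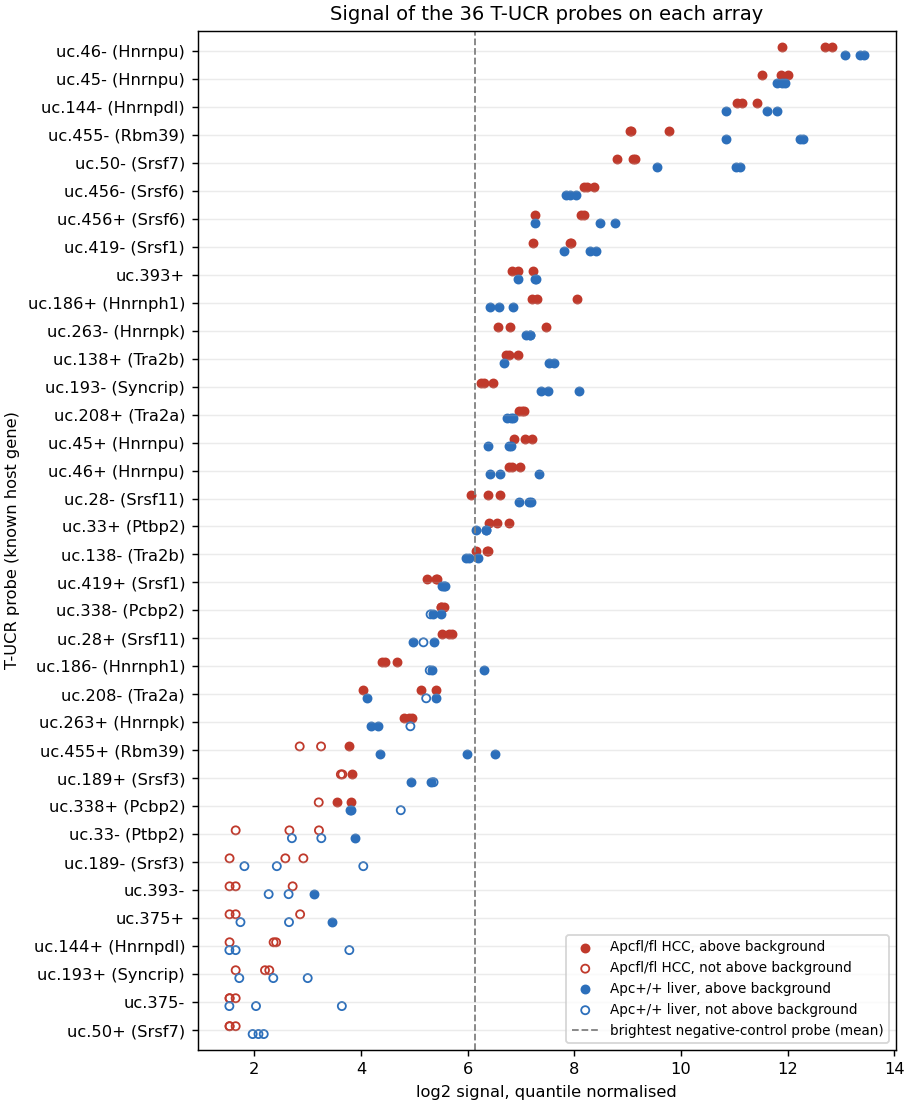
Log2 signal, quantile normalised, of the 36 T-UCR probes (rows, with the known host gene) on each of the 6 arrays; red points are Apcfl/fl HCC, blue points Apc+/+ liver, and open points were not above background. The dashed line is the mean of the brightest negative-control probe at 6.13. The 8 untested probes lie at the bottom, between 1.53 and 4.04, and the blue points of uc.455-, uc.50- and uc.193- lie to the right of all red ones.

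Of the members that passed a threshold between the groups, most were lower in HCC, and this also held for the other T-UCRs. The methods of the study called a probe at an unadjusted p of at most 0.05 with a fold of at least 2, and this is called the methods' threshold here. It was passed by 7 of the 28 tested members (25%), 6 of them lower and 1 higher in HCC. Over all tested probes of the array 11.2% passed it, 5.85% lower and 5.36% higher. Among the other T-UCRs 25 of 474 did (5.27%), 18 of them lower and 7 higher. The 6 lower members were uc.455- and uc.455+ (Rbm39), uc.50- (Srsf7), uc.189+ (Srsf3), uc.193- (Syncrip) and uc.186- (Hnrnph1). The higher one was uc.186+, the opposite strand of the last. After Benjamini-Hochberg adjustment by limma over all tested probes, 1 member (uc.189+) was below an adjusted p of 0.05 with that fold, against 1.92% of all tested probes (0.896% lower, 1.03% higher). With the 6 arrays taken as 6 samples, 6 members passed the methods' threshold, all lower (all probes: 13.4%), and 3 passed the adjusted one, uc.189+, uc.193- and uc.455- (all probes: 7.54%, of which 4.1% lower).

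The median change of the 28 tested members was -0.15, beside 0.05 for the other tested T-UCRs and 0.06 for all tested probes. Against Apc+/+ replicate 1 alone, from the slide row of the HCC arrays, the order turned. There the median was 0.061 for the members and -0.021 for all tested probes. The members' median stayed below 0 in the other fits described below. The 14 plus probes had a median change of -0.0011 and were split 7 to 7 by sign. The 14 minus probes had a median change of -0.37, with 10 below 0 and 4 above. This split by strand was not set beside that of other T-UCRs and was not tested. In 15 members the arrays of the groups did not overlap, 9 of them lower and 6 higher in HCC. Over all tested probes, 33.8% did not overlap, 16.4% lower and 17.4% higher.

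**Figure D2:**
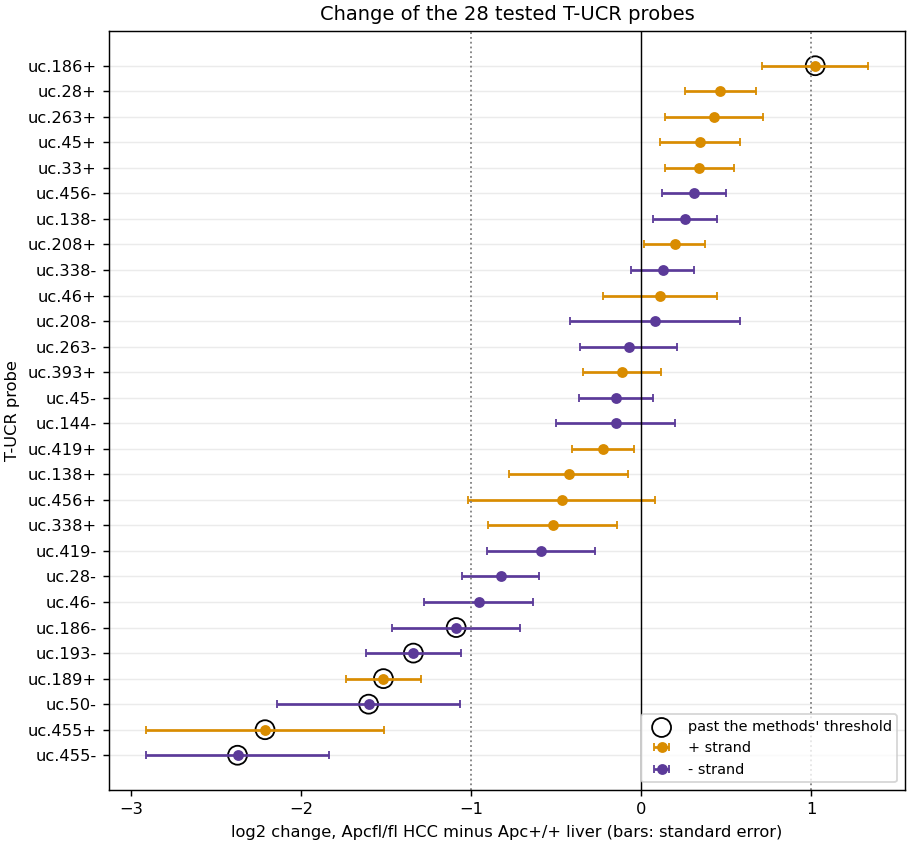
Log2 change of the 28 tested T-UCR probes, Apcfl/fl HCC minus Apc+/+ liver, with bars of 1 standard error from limma. Orange points are plus-strand probes and violet points minus-strand probes, dotted lines mark a 2-fold change, and rings mark the 7 probes past the methods' threshold. Of these, 6 lie left of 0, down to -2.38 for uc.455-, and uc.186+ lies right of it at 1.02.

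Rbm39 encodes a splicing factor that works with the 3' splice site factor U2AF, and its probes had the largest changes among the tested members, though within the slide row of the HCC arrays uc.193- differed more (-1.76 against -1.43 for uc.455-). On uc.455-, HCC replicates 1 to 3 read 9.05, 9.06 and 9.78, and Apc+/+ replicates 1 to 3 read 10.85, 12.30 and 12.23. All HCC arrays were below all liver arrays, and Apc+/+ replicate 1 was the liver array nearest to them. The group means were 9.42 ± 0.52 (SD, n = 2 samples) and 11.79 ± 0.82 (SD, n = 3). The change was -2.38 (standard error 0.54), 5.19-fold lower in HCC, with a limma adjusted p of 0.107, or 0.0258 with 6 samples.

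The antisense probe of the same element, uc.455+, read 3.25, 2.85 and 3.77 in HCC and 4.36, 6.52 and 6.00 in liver. Again no array of one group reached into the other, and Apc+/+ replicate 1 was the nearest. Its change was -2.21 (standard error 0.70), 4.64-fold lower in HCC, with a limma adjusted p of 0.194, or 0.0636 with 6 samples. This probe was above background on all 3 liver arrays and on HCC replicate 3 alone, and its mean lay below the brightest negative control. It did not pass the methods' threshold without Apcfl/fl replicate 3 (-2.57) or without Apc+/+ replicate 3 (-2.03), or with normexp background correction (-0.66), while uc.455- passed it under each of these. The changes of the 2 strands differed by 0.16 (standard error 0.35), with a limma adjusted p of 0.829 over the T-UCR elements with both strands tested. With normexp, which adds an offset to every intensity, they differed by 1.63, with a limma adjusted p of 0.0351.

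The array also carried an mRNA probe of Rbm39, which the authors' table of called probes names. It read 11.70, 11.73 and 11.61 in HCC and 12.26, 13.25 and 13.36 in liver. The mRNA probe too was lower on every HCC array, with Apc+/+ replicate 1 nearest to them. Its change was -1.29 (standard error 0.39; limma adjusted p 0.177), past the methods' threshold.

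Hnrnph1 encodes hnRNP H1, which binds runs of G in pre-mRNA. Its element, uc.186, was the only member element whose strands passed the methods' threshold in opposite directions. On uc.186+, HCC replicates 1 to 3 read 7.20, 7.30 and 8.05, and Apc+/+ replicates read 6.86, 6.42 and 6.59. HCC replicate 3 was the highest array, and the groups did not overlap. The change was 1.02 (standard error 0.31), 2.03-fold higher in HCC, with a limma adjusted p of 0.184. The call rested on single libraries. It was lost with 6 samples (0.89), without Apcfl/fl replicate 2 (0.999) or 3 (0.63), and without Apc+/+ replicate 2 (0.93) or 3 (1.01). With normexp background correction the change was 0.70 and did not pass either.

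On uc.186-, HCC read 4.46, 4.40 and 4.67 and liver 5.33, 5.29 and 6.30. The HCC arrays lay together below the liver arrays, of which Apc+/+ replicate 3 was the highest and Apc+/+ replicate 2 was not above background. The change was -1.09 (standard error 0.38), 2.13-fold lower in HCC, with a limma adjusted p of 0.228. It did not pass without Apcfl/fl replicate 3 (-1.21) or Apc+/+ replicate 3 (-0.76), or with normexp (-0.35), and its mean lay below the brightest negative control.

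The strand difference, the change of the plus probe minus that of the minus probe, was 2.11 for uc.186 (standard error 0.48). Per array, plus minus minus was 2.74, 2.90 and 3.37 in HCC and 1.53, 1.14 and 0.29 in liver, so the groups did not overlap, as was so for 30.1% of all such elements. The limma adjusted p over the 136 T-UCR elements with both strands tested was 0.207, and 0.0717 with 6 samples. With normexp the strand difference was 1.05 (limma adjusted p 0.0765). The Hnrnph1 mRNA probe was lower in HCC, as was uc.186-, and went from 7.92, 9.21 and 9.32 in liver to 6.63, 6.48 and 6.48 in HCC. Its change was -2.30 (standard error 0.48; limma adjusted p 0.0895).

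**Figure D3:**
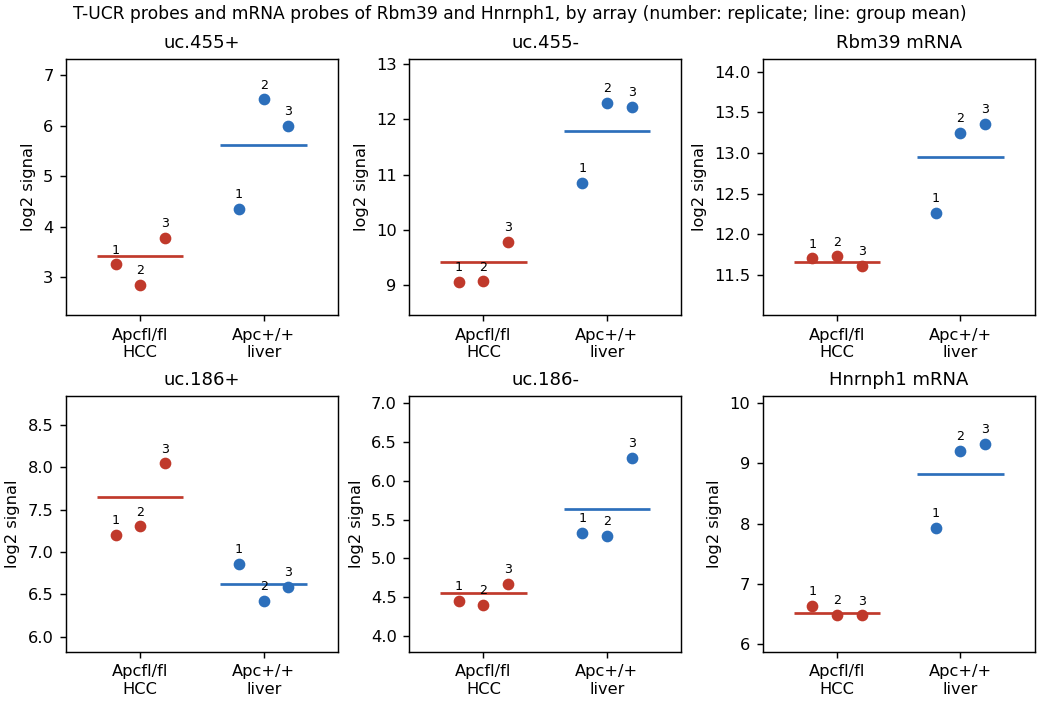
Log2 signal of both T-UCR probes and the mRNA probe of Rbm39 (uc.455, top) and Hnrnph1 (uc.186, bottom) on each array. Points are arrays, numbers are replicates, lines are the group means of the 2 HCC samples and 3 liver samples, and each panel has its own scale. In all panels but uc.186+ the HCC arrays lie below the liver arrays, and for uc.455 and both mRNAs Apc+/+ replicate 1 is the lowest liver array.

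Across the 11 member elements with both strands tested, uc.28 was the other with an unadjusted p of at most 0.05 for the strand difference, which makes 2 of 11 beside 13.2% of all 136 elements. None passed after adjustment, and none of the 136 did, whereas with normexp 9 of the 136 did, uc.28 and uc.455 among them. For uc.455, normexp moved the dim uc.455+ from -2.21 to -0.66 and the bright uc.455- only from -2.38 to -2.29. uc.28 lies in Srsf11, which encodes an SR-related protein. On uc.28+, HCC read 5.52, 5.71 and 5.66 and liver 5.37, 5.17 and 4.98, a change of 0.46 (standard error 0.21). On uc.28-, HCC read 6.61, 6.38 and 6.06 and liver 7.15, 6.97 and 7.19, a change of -0.83 (standard error 0.23; limma adjusted p 0.148). The groups did not overlap on either strand, with the plus probe higher and the minus probe lower in HCC, though both changes were under 2-fold. The mean of uc.28+ lay below the brightest negative control, and this probe was not above background on Apc+/+ replicate 2. The strand difference was 1.29 (standard error 0.35; limma adjusted p 0.224), or 0.71 with normexp (limma adjusted p 0.0371), and its unadjusted call was lost without Apcfl/fl replicate 3 (1.05). The other 9 elements had strand differences from -0.78 to 1.07, with limma adjusted p from 0.371 to 0.892.

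The 7 SR and SR-related loci gave 14 probes, of which 12 were tested, 2 passed the methods' threshold and both were lower. Srsf3 encodes the smallest classical SR protein and holds a well-known poison exon. Its probe uc.189+ read 3.62, 3.82 and 3.65 in HCC and 4.93, 5.36 and 5.32 in liver. The HCC arrays lay close together and all were below the liver arrays. The change was -1.52 (standard error 0.22), 2.86-fold lower in HCC, with a limma adjusted p of 0.0499, or 0.00855 with 6 samples. The probe was dim, above background on 1 HCC array and 2 liver arrays, with a mean below the brightest negative control. The scanner software's own error for it reached 0.42 on an array. Without any 1 replicate its limma adjusted p ran from 0.05006 to 0.217, with changes from -1.65 to -1.44 that all passed the methods' threshold, and with normexp background correction its change was -0.45. Its opposite strand, uc.189-, was above background on no array, with values from 1.53 to 4.04.

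Srsf7 encodes an SR protein with a zinc knuckle that also acts in mRNA export. Its probe uc.50- read 9.11, 9.14 and 8.80 in HCC and 9.56, 11.11 and 11.04 in liver. The groups did not overlap, but Apc+/+ replicate 1 lay closer to the HCC arrays than to the other liver arrays. The group means were 8.96 ± 0.23 (SD, n = 2 samples) and 10.57 ± 0.88 (SD, n = 3), a change of -1.60 (standard error 0.54; limma adjusted p 0.214), 3.04-fold lower in HCC. It did not pass the methods' threshold without Apcfl/fl replicate 3 (-1.44), Apc+/+ replicate 2 (-1.33) or Apc+/+ replicate 3 (-1.37). The opposite strand, uc.50+, was above background on no array, with values from 1.53 to 2.18.

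The other 10 tested probes of the SR group did not pass the methods' threshold, with changes between -0.83 and 0.46. Tra2b and Tra2a encode the transformer-2 splicing activators. uc.138+ (Tra2b) read 6.72, 6.77 and 6.94 in HCC and 6.67, 7.61 and 7.52 in liver, and uc.138- read 6.15, 6.39 and 6.36 against 6.19, 5.97 and 6.02. Both strands overlapped between the groups, with changes of -0.43 and 0.26. uc.208+ (Tra2a) read 7.02, 7.05 and 6.96 in HCC and 6.80, 6.86 and 6.74 in liver, without overlap but with a change of 0.20. uc.208- spread over the same range in both groups, from 4.05 to 5.41, with a change of 0.08 (standard error 0.50).

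Srsf6 and Srsf1 encode classical SR proteins, and Srsf1 is also known as a proto-oncogene. uc.456- (Srsf6) read 8.25, 8.37 and 8.18 in HCC and 7.84, 8.03 and 7.92 in liver, all higher in HCC by a small change of 0.31. uc.456+ read 8.12, 8.18 and 7.27 in HCC and 7.26, 8.77 and 8.49 in liver. On that strand HCC replicate 3 and Apc+/+ replicate 1 lay together below the other arrays, and the groups overlapped (change -0.47, standard error 0.55). uc.419- (Srsf1) read 7.92, 7.93 and 7.23 in HCC and 7.81, 8.40 and 8.29 in liver, with overlap and a change of -0.59 (standard error 0.32). uc.419+ read 5.42, 5.41 and 5.24 in HCC and 5.52, 5.56 and 5.57 in liver, without overlap and with a change of -0.22.

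The 8 elements in hnRNP genes gave 16 probes, of which 13 were tested. Beside the uc.186 strands, uc.193- passed the methods' threshold. It lies in Syncrip, which encodes hnRNP Q, a factor in mRNA editing, stability and translation. uc.193- read 6.31, 6.48 and 6.24 in HCC and 8.08, 7.52 and 7.38 in liver. The HCC arrays lay close together and all liver arrays were above them, with Apc+/+ replicate 1 the highest. The means were 6.32 ± 0.11 (SD, n = 2 samples) and 7.66 ± 0.37 (SD, n = 3), a change of -1.34 (standard error 0.28), 2.53-fold lower in HCC. The limma adjusted p was 0.0892, or 0.0219 with 6 samples. It was 0.0454 among probes above background on all 6 arrays and 0.0407 among probes above the brightest negative control, and in both uc.193- was the 1 member past the adjusted threshold in place of uc.189+, which those filters leave out. uc.193- passed the methods' threshold without any 1 replicate but not with normexp (-0.90). Its opposite strand, uc.193+, was above background on no array, with values from 1.65 to 3.00.

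Hnrnpu encodes hnRNP U, a nuclear scaffold protein that binds RNA and chromatin, and it holds uc.45 and uc.46. uc.46- read 12.70, 12.84 and 11.90 in HCC and 13.08, 13.43 and 13.36 in liver. All HCC arrays were below all liver arrays, and the change of -0.96 (standard error 0.32; limma adjusted p 0.216) was just under 2-fold. Without Apcfl/fl replicate 3 the change was -0.52, and without Apc+/+ replicate 1 it was -1.06 and passed the methods' threshold. The neighbouring uc.45- read 12.01, 11.88 and 11.52 in HCC and 11.94, 11.89 and 11.80 in liver, with overlap and a change of -0.15 (standard error 0.22). On the plus strand, uc.45+ read 7.08, 7.20 and 6.87 in HCC and 6.38, 6.78 and 6.82 in liver, a change of 0.35. uc.46+ read 6.83, 6.78 and 6.99 in HCC and 6.42, 7.35 and 6.60 in liver, a change of 0.11. The arrays of uc.45+ were all higher in HCC, and those of uc.46+ overlapped. Whether the changes of uc.45- and uc.46- differ was not tested.

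The remaining hnRNP members differed by less than 2-fold and did not pass. Hnrnpdl encodes a homologue of hnRNP D, and its probe uc.144- read 11.05, 11.15 and 11.44 in HCC and 10.85, 11.80 and 11.61 in liver, with Apc+/+ replicate 1 the lowest of all. The opposite strand, uc.144+, was above background on no array, with values from 1.53 to 3.78. Ptbp2 encodes the neuronal polypyrimidine tract binding protein, and uc.33+ read 6.41, 6.54 and 6.77 in HCC and 6.33, 6.33 and 6.16 in liver. Its arrays were all higher in HCC, with a change of 0.34 (standard error 0.20), while uc.33- was untested, with values from 1.65 to 3.88.

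Hnrnpk and Pcbp2 encode KH-domain proteins that bind runs of C. uc.263- (Hnrnpk) read 6.57, 6.79 and 7.46 in HCC and 7.10, 7.17 and 7.17 in liver. HCC replicate 3 was the highest array and the other HCC arrays the lowest, and the change was -0.07 (standard error 0.29). uc.263+ read 4.81, 4.91 and 4.96 in HCC and 4.33, 4.93 and 4.18 in liver, with overlap and a change of 0.43. The Pcbp2 probes uc.338+ and uc.338- lay below the brightest negative control, with changes of -0.52 and 0.13. uc.393+, with no host gene named here, read 6.82, 6.94 and 7.22 in HCC and 6.94, 7.27 and 7.28 in liver, with overlap and a change of -0.11. uc.393- was untested, with values from 1.53 to 3.12.

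In all, 21 tested members did not pass the methods' threshold. Their changes ran from -0.96 to 0.46, with 10 above 0 and 11 below, and their limma adjusted p ranged from 0.148 to 0.950. The standard errors of these members were 0.18 to 0.55, and a test that was not passed with 5 samples does not show that they did not change.

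The size of several changes depended on which Apc+/+ arrays were compared, and these arrays differed in slide row. Only Apc+/+ replicate 1 shared the row of the HCC arrays, so slide row and that single sample cannot be told apart. The position codes do not say whether all arrays were on 1 slide. Against Apc+/+ replicate 1, which shared the slide row of the HCC arrays, uc.455- differed by -1.43, uc.455+ by -0.95 and uc.50- by -0.59. Against Apc+/+ replicates 2 and 3 in the other row, the same members differed by -2.85, -2.85 and -2.11. uc.193- went the other way, with -1.76 within the row and -1.13 against the other. uc.189+ differed by -1.25 and -1.65, and the uc.186 strands by 0.79 and 1.14 on plus and by -0.78 and -1.24 on minus. All 7 members past the methods' threshold had the same direction in both comparisons. Their HCC and liver arrays did not overlap, so that direction was fixed beforehand and is no separate evidence. Within the row 3 of them (uc.189+, uc.193- and uc.455-) reached 2-fold, against 7 of 7 in the other comparison. Over the 28 tested members, 3 (10.7%) reached 2-fold within the row and 8 (28.6%) against the other, beside 14.8% and 21.0% of all tested probes. These 2 comparisons share the HCC samples. With slide row as a block, the change is that against Apc+/+ replicate 1, a liver arm of 1 array that is assumed to vary like the others. In that fit 3 members (uc.189+, uc.193- and uc.455-) passed the methods' threshold, against 8.69% of all probes, and none the adjusted one.

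**Figure D4:**
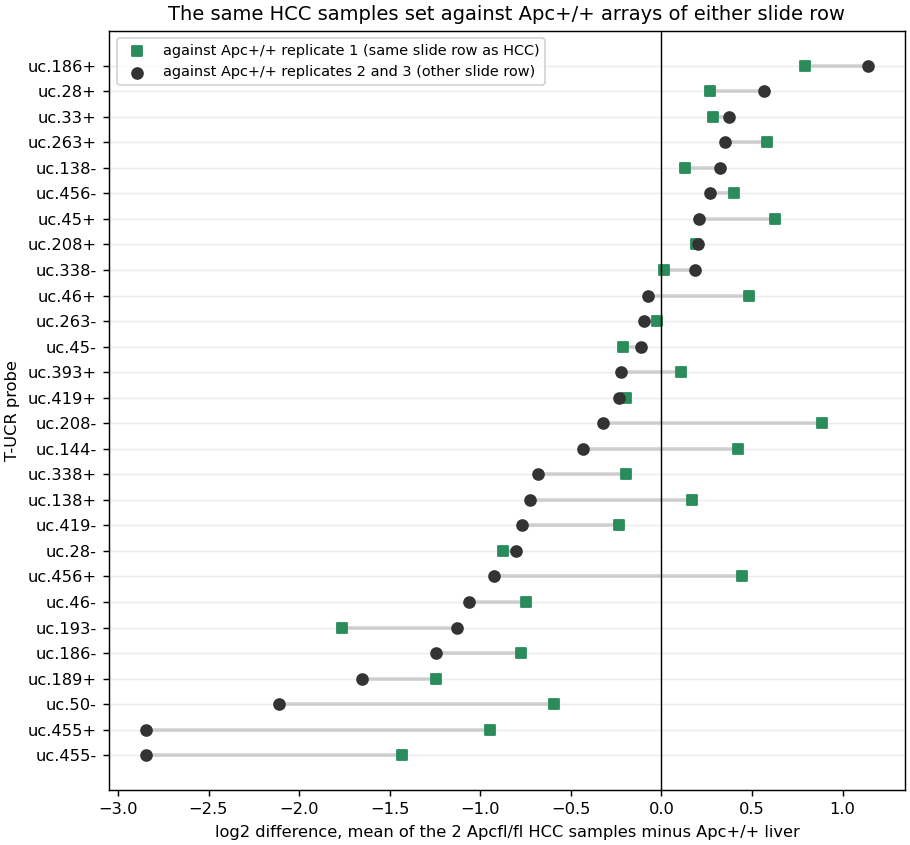
Log2 difference of the mean of the 2 Apcfl/fl HCC samples from Apc+/+ replicate 1 (green squares, same slide row as the HCC arrays) and from the mean of Apc+/+ replicates 2 and 3 (dark circles, other slide row) for the 28 tested T-UCR probes. The members past the methods' threshold lie on 1 side of 0 in both comparisons, which follows from groups that do not overlap. Of these, uc.455-, uc.455+ and uc.50- lie nearer to 0 within the row, at -1.43, -0.95 and -0.59.

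Other splicing regulators could be followed only through mRNA probes that the authors' table names, and that table holds probes called different between the groups, so the counts below carry no information on how common a difference is. Of 75 genes of SR proteins, hnRNPs and other splicing regulators, 16 were named, 14 lower and 2 higher in HCC by their brightest probe. SR proteins gave 2 of 15, the splicing coactivators Srrm1 (-1.22) and Srrm2 (-1.70). hnRNPs gave 4 of 28, with Hnrnph1, Hnrnpa3 (-1.77) and Hnrnpd (-1.13) lower and Hnrnpm at 0.85, which did not pass the methods' threshold. Among 32 other regulators 10 were named. Rbm5, a tumour suppressor that regulates apoptosis genes by splicing, changed by -1.56 (standard error 0.22) and was the 1 of the 16 with a limma adjusted p below 0.05, at 0.0481. U2af1 (-1.41) and Sf1 (-1.25 and -1.22 on its 2 probes), which take part in defining the 3' end of an intron, were lower past the methods' threshold. The same held for the epithelial regulator Esrp2 (-1.68), the RNA-binding protein Rbfox3 (-1.55) and the kinases Clk3 (-1.22) and Srpk2 (-1.56), which phosphorylate SR proteins. The 3 probes of Celf2 disagreed, at 1.73, -0.99 and -1.96. Rbm39 and Hnrnph1 were the 2 host genes of members with a named mRNA probe, and none of 10 nonsense-mediated decay genes was named.

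Markers of liver cell types could be seen only through the same named probes. The authors' table holds probes called different, so a difference in each named marker was nearly fixed in advance. Of 7 hepatocyte markers 3 were named (Apoa1, Cebpa and Cps1), all lower in HCC, and their summed linear signal ran from 22434.5 to 47305.8 in HCC and from 98366 to 168241 in liver. Of 5 leukocyte markers 2 were named (Cd74 and Adgre1), both higher, with sums of 3508 to 10087 in HCC and 1571 to 2303 in liver. Of 3 endothelial markers Pecam1 was named, at 34.3 to 62.2 in HCC and 120 to 149 in liver, and no stellate cell, fibroblast or cholangiocyte marker was named. Alb, Ptprc and other defining markers were not among the named probes and were not analysed here. The part of cell composition in the changes of the T-UCR probes was not tested.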

How the data were processed

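Liver RNA of 3 Apcfl/fl HCC and 3 Apc+/+ samples was measured on single-colour arrays, and arrays of diethylnitrosamine-treated mice were not analysed here. Spots were read by the authors with Agilent Feature Extraction 11.0.1.1, and the deposited files give each spot's processed, background-subtracted intensity (linear). These deposited files also hold other flags per spot, such as well above background, and an error estimate. In a further table, the authors deposited quantile-normalised log2 values for the 4197 probes they called. It named mRNA probes and lists 5 members, whose log2 values gave 1 alternative with no test. Its fold changes and p-values were not used. No column was left unmapped.

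Control spots, 1200 spots of 20 unmarked negative-control probes and spots flagged as outliers were left out. Processed intensities were taken to log2, averaged by probe and quantile normalised over 59631 probes. A probe was tested when well above background on at least 3 of 6 arrays (on 50% of its spots), which left 45640. Apcfl/fl replicates 1 and 2, with a mean chi-square of 0.774 per probe (limit 1, over 29685 probes), were averaged, and this was decided with an earlier comparison of the arrays known. Groups were compared by limma 3.58.1 in R 4.3.3 (lmFit, eBayes, two-sided, no covariate), with Benjamini-Hochberg adjustment over all tested probes. The strand difference was fitted in the same way on plus minus minus log2 values over the 136 elements with both strands tested. The level of a negative-control probe was the median of its spots, placed on the quantile scale of each array and averaged. The number of arrays limits the precision, and no spot was saturated. The scripts were tested on simulated data.

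The members, gene lists and marker lists were chosen with earlier results of these data known. Values array by array are given for members past the methods' threshold, for members above the brightest negative control and for their opposite strands, and ranges for the others. Values after ± are standard deviations. Host genes were assigned from background knowledge, and strand signs were not tied to a genome build in the sources used here. mRNA probes took their symbols from RefSeq accessions. The values of 1 gene of the lists are not reported here. Alternatives were normexp background correction (offset 50), 75th percentile scaling, filters, sample numbers, blocks, leaving out replicates and the authors' own log2 values.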

Additional observations from a re-analysis of the deposited data

How the results depend on the processing

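Of 19 alternatives, 2 (leaving out Apcfl/fl replicates 1 and 2 together, and probes above the brightest negative control) were chosen after seeing the data. For 26 named members, 425 of 460 comparisons kept direction and side of the adjusted threshold (5 of them, from the authors' own log2 values, have a direction alone). Only uc.189+ was past that threshold in the main fit, so keeping the same side says little for the other members. uc.189+ itself stayed past it in 3 of 16 alternatives. Of 108 comparisons of counts with the main fit, 64 were the same or within 1.5 times. The count past the methods' threshold, 7 (6 lower, 1 higher), became 2 (2 lower, 0 higher) with normexp, 4 (3 lower) above background on all 6 arrays, 4 (4 lower, 0 higher) with Apc+/+ replicates 2 and 3 averaged, 3 (3 lower, 0 higher) with slide row as a block and 4 (3 lower) above the brightest negative control. Of all tested probes, 11.2% passed it in the main fit, 6.56% with normexp and 9.93% with Apc+/+ replicates 2 and 3 averaged. The share was 13.1% above background on all 6 arrays and 14.7% above the brightest negative control. The count of higher members was 0 with 6 samples, the methods' t-test and the replicate block. Leaving out 1 replicate gave 3 to 8 (3 to 7 lower, 0 to 1 higher), with 3 without Apcfl/fl replicate 3 or without Apc+/+ replicate 3. The adjusted count of 1 (uc.189+) was 1 by another member, uc.193-, above background on all 6 arrays and above the brightest negative control. It became 3 with 6 samples and 0 with normexp, 75th percentile scaling, no filter, trend and robust eBayes, Apc+/+ replicates 2 and 3 averaged, the slide row block, without any single replicate and when Apcfl/fl replicates 1 and 2 were both left out. Over all tested probes the adjusted count was 878 in the main fit. It was 1659 with normexp, 728 with 75th percentile scaling, 277 with no filter and 1900 with trend and robust eBayes. It was 0 with Apc+/+ replicates 2 and 3 averaged and without Apc+/+ replicate 1 or 3, and 1 without Apc+/+ replicate 2. In these last fits a count of 0 is not particular to the members. uc.189+ had limma adjusted p from 0.00855 to 0.244 and a change of -0.45 with normexp. Strand differences with an unadjusted p of at most 0.05 numbered 2, and 4 with normexp (2 after adjustment, uc.28 and uc.455), 1 above background on all 6 arrays, 1 above the brightest negative control, 0 with the slide row block and 1 to 4 without 1 replicate (none after adjustment). The replicate numbers did not pair the arrays (correlations of -0.07 to 0.06), and the replicate block left 6 members past the methods' threshold and 1 past the adjusted one. Signs turned only for members that did not pass: uc.45- (0.0169) and uc.144- (0.00316) with 75th percentile scaling, uc.208- (-0.0576) with 6 samples, the methods' t-test and the replicate block, uc.138+ (0.17), uc.144- (0.42), uc.393+ (0.11) and uc.456+ (0.44) with the slide row block, and uc.144- (0.0185), uc.263- (0.32) and uc.393+ (0.0592) without Apcfl/fl replicates 1 and 2. Leaving out 1 replicate gave -0.19 to 0.0640 for uc.45-, -0.0756 to 0.39 for uc.46+, -0.44 to 0.0420 for uc.144- and -0.33 to 0.35 for uc.208-. The cause was not tested. Dim probes (uc.455+, uc.186-, uc.189+ and uc.28+ among them) lie under the brightest negative control, where signal over background limits what a value shows.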
